A study of Mus musculus with 35 samples.

Results

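Chemokines, the small secreted proteins that direct the migration of leukocytes and of other cells along concentration gradients, were followed through 35 mouse arrays of induced pluripotent stem (iPS) clones, embryonic stem (ES) cells and the primary cells from which the clones were made. The members were all probes whose gene name on the array was Ccl or Cxcl with a number, or Cx3cl1. This rule found 44 of 41174 gene probes, for 34 of the 27962 gene names on the array. On the array, Ccl27, Cxcl4 and Cxcl7 are older names of the genes now called Ccl27a, Pf4 and Ppbp.

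The 30 clones formed 6 groups of 5. They came from PαS cells of the bone marrow (PaS in the labels, mesenchymal stem cells sorted as CD45-Ter119-PDGFRα+Sca-1+), from OP cells of the bone marrow (osteo-progenitors sorted as CD45-Ter119-PDGFRα-Sca-1-), or from TTF, cells that grew out of minced tail tips. Each source was infected with retroviruses for Oct3/4, Sox2, Klf4 and c-Myc (4F) or for the same set without c-Myc (3F), in each case with a DsRed virus. All sources were prepared from Nanog-reporter mice aged 6 weeks and were expanded in culture before infection, and the clones were selected with puromycin through the reporter. The 2 ES arrays, of the lines EB-3 and RF8, and the 3 arrays of primary PαS, OP and TTF cells were single arrays of uninfected cells.

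Several features limited these groups as models. Each clone is a line of its own, and the sources do not state from how many mice or inductions the clones came. The p-values therefore measure the spread between clones of 1 study together with the gap between the ES arrays. Those arrays entered the same fit. The iPS cells were kept on SNL feeder cells, a mouse fibroblast line inactivated with mitomycin C, and RNA of the feeders could be part of each sample. For the primary cells, it is not stated whether RNA was taken from freshly sorted or from expanded cells. In such bulk RNA, fewer cells of a type and less RNA per cell cannot be told apart. All clone arrays were scanned in 1 session on 8 slides, EB-3 and the 3 primary arrays in a second session on 1 slide, and RF8 in the third session on another slide. Any difference between the clones and these 5 arrays therefore cannot be told apart from scan session and slide.

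Levels are log2 intensities relative to the 75th percentile of the array, so 0 is that percentile and 1 unit is a 2-fold difference. A spot was taken as measured where the scanner software marked it well above background, and 56.6% to 65.7% of gene probes were so marked on the clone arrays. Levels are comparable between arrays for 1 probe, not between probes. For genes with several probes, the probe with the highest mean stood for the gene. The pluripotency labels were checked against Oct3/4 (Pou5f1), Nanog, Sox2 and related markers: 27 clones and both ES arrays had all 7 markers measured above background, and clones #1 and #3 of 4F-OP-iPS, together with #1 of 4F-TTF-iPS, lacked Sox2 and Nanog. Called differences between clone groups that are lost without those 3 clones are given with and without them.

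Chemokines are grouped by their cysteines into CC, CXC and CX3C ligands, and they act through G protein-coupled receptors. Inflammatory members such as Ccl2, Ccl5 and Cxcl10 are switched on by NF-κB and interferon signals in many cells, fibroblasts included. Homeostatic members act in tissue organisation: Cxcl12, made by stromal cells of the bone marrow, holds blood stem cells there through Cxcr4, and Ccl21 and Ccl25 guide T cells through Ccr7 and Ccr9. Many inflammatory members lie in gene clusters. By the mm7 positions of the probes, Ccl2, Ccl7, Ccl11, Ccl12, Ccl8 and Ccl1 lay in chr11:82118723-82258468, and Ccl5, Ccl9, Ccl6, Ccl3 and Ccl4 in chr11:83595699-83734514. Cxcl5, Cxcl7, Cxcl4, Cxcl15, Cxcl1 and Cxcl2 lay in chr5:90732453-90894807, and Cxcl9, Cxcl10 and Cxcl11 in chr5:92310412-92348495.

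The comparisons of clones turned on Ccl5, Ccl21c and Ccl25, and Cxcl12 was the member that stood highest on the primary OP array relative to the clones. Their array probes, which are 60 bases long, are shown because each value below is the signal of 1 such sequence, and because probes of 1 gene did not always move together. The file positions are those of mm7. The sources used here do not state which exon or untranslated part a probe covers. No base is in capitals, since no part of a probe was singled out.
Ccl5, main probe, chr11:83595699-83595758, minus strand: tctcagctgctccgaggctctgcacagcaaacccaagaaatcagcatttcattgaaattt
Ccl5, other probe, chr11:83595850-83595905, minus strand: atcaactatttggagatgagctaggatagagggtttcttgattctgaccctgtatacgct
Ccl21c, minus strand of an unplaced sequence: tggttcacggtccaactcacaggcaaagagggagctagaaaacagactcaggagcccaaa
Ccl25, main probe, chr8:4325884-4325943, plus strand: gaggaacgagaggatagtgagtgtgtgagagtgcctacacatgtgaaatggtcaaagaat
Ccl25, upstream probe, chr8:4299246-4299305, plus strand: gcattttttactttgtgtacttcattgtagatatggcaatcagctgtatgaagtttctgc
Cxcl12, main probe, chr6:117207552-117207611, plus strand: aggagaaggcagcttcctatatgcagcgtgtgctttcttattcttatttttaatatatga
Cxcl12, other probe, chr6:117200799-117200858, plus strand: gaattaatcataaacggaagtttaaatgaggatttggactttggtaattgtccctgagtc

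The Ccl5 probes lie close together, whereas the upstream Ccl25 probe lies apart from the rest of that gene's probes. Ccl21c belongs to a family of nearly identical Ccl21 copies, so its signal can hold RNA of the other copies and is uncertain as to the copy.

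By the main probe of each of the 34 chemokines, 12 were above background on all 30 clones, 16 on some and 6 on none (see the map of levels on all 35 arrays). The 12 were Ccl2, Ccl5, Ccl7, Ccl9, Ccl25, Ccl27, Cxcl1, Cxcl10, Cxcl12, Cxcl14, Cxcl16 and Cx3cl1. They thus included inflammatory, homeostatic and both membrane-bound ligands. A clone had between 13 and 23 chemokines above background, with a median of 19. EB-3 had 14, RF8 18, primary PαS 21, primary OP 20 and primary TTF 29. The main probes of Ccl1, Ccl22 and Ccl24 were above background on no array, but the second Ccl24 probe was on 4F-OP-iPS #1 (-4.85), primary OP (-6.45) and primary TTF (-5.54).

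**Figure D1:**
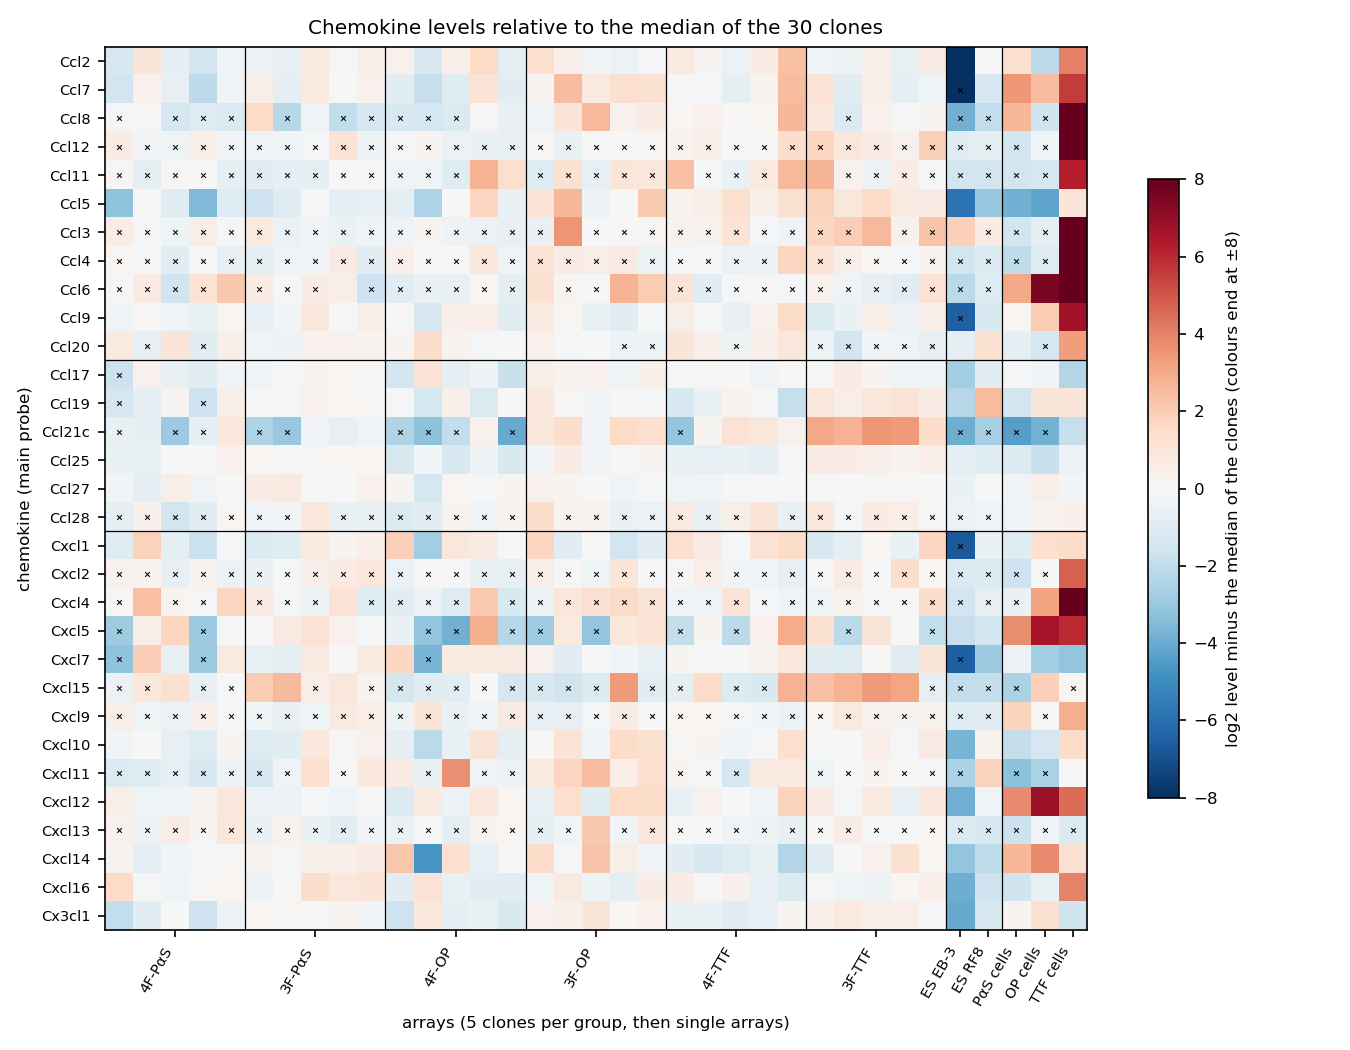
Levels of the 31 chemokines whose main probe was above background on at least 1 array (rows) on the 35 arrays (columns, by group). Colour is the log2 level minus the median of the 30 clones, the scale ends at 8 in each direction, and crosses mark spots not well above background. The primary TTF column holds the strongest increases and the EB-3 column many decreases.

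The members measured on every clone still varied widely between clones. Cxcl14, a ligand made by epithelia and stroma, had the widest range, from -4.60 in 4F-OP-iPS #2 to 2.37 in 3F-OP-iPS #3, a 125-fold span. The next were Ccl5 with a 72.9-fold, Cxcl1 with a 26.0-fold, Ccl7 with a 23.8-fold and Ccl2 with a 14.2-fold span. These ranges ran within groups as well as between them. 4F-OP-iPS #2 was the lowest of all clones for 5 of the 12 genes and among the 3 lowest for 8, and 4F-PαS-iPS #4 was the lowest for 3. 4F-TTF-iPS #5 was among the 3 highest for 5.

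Ccl5, a CC ligand that recruits monocytes and T cells, was called between PαS-iPS and TTF-iPS clones, and in the reported fit between no other sources. In 4F-PαS-iPS #1 to #5 its levels were -3.34, -0.16, -1.09, -3.70 and -1.16, averaging -1.89 ± 1.54 (SD, n = 5). The 3F-PαS-iPS clones #1 to #5 read -1.83, -1.09, -0.19, -0.95 and -0.81, averaging -0.97 ± 0.59. On this main probe all 10 PαS-iPS clones thus lay below the array's 75th percentile.

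The TTF-iPS clones all lay above it. Their Ccl5 levels were 0.16, 0.40, 1.11, 0.23 and 1.07 in 4F clones #1 to #5 (0.59 ± 0.46) and 1.69, 0.74, 1.41, 0.59 and 0.48 in 3F clones (0.98 ± 0.54). The OP-iPS clones spread over both ranges, with -0.85, -2.59, -0.13, 1.60 and -0.68 in 4F clones (-0.53 ± 1.51) and 0.94, 2.49, -0.64, -0.17 and 1.96 in 3F clones (0.91 ± 1.34). The PαS-iPS and TTF-iPS ranges did not overlap on either Ccl5 probe.

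Across the array, 0.5% of the 27623 probes tested changed between PαS-iPS and TTF-iPS clones at a limma Benjamini-Hochberg adjusted p under 0.05 and at least 2-fold, and 0.308% were lower in PαS-iPS. Among the chemokines, 3 of 27 tested probes changed, for 2 genes, all lower in PαS-iPS. The Ccl5 probes fell by 2.22 (SE 0.50, limma adjusted p = 0.0299) and by 2.39 (SE 0.53, limma adjusted p = 0.0292). The third was Ccl21c, a Ccr7 ligand of lymphoid stroma, which entered the test only through 3F-OP-iPS and 3F-TTF-iPS clones, where it was highest. The median log2 difference of the chemokine probes was -0.32, against -0.01 over all probes tested. Without the slide that held 4F-PαS-iPS #1 and #4 this median was -0.02.

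The Ccl5 difference kept its direction in every alternative and leave-one-out fit, but its call did not hold in all. With slide as a random block it was -2.42 with limma adjusted p = 0.127, without the slide that held 4F-PαS-iPS #1 and #4 it was -1.68 with limma adjusted p = 0.0767, and without any 1 of 4F-PαS-iPS #1, 4F-PαS-iPS #4, 3F-PαS-iPS #5, 4F-TTF-iPS #1, 3F-TTF-iPS #1 and 3F-TTF-iPS #3 it ran from -2.27 to -1.99 with limma adjusted p from 0.0521 to 0.0611. On the only slide with clones of both sources, 3 PαS-iPS clones averaged -1.04 and the TTF-iPS clone was at 1.07. These PαS-iPS clones were 3F and the TTF-iPS clone was 4F, so source and factor set cannot be told apart there. The summed level of 12 fibroblast and feeder markers covered much the same range in both (5.73 to 6.71 in PαS-iPS and 5.70 to 7.29 in TTF-iPS), as did that of 12 macrophage markers (1.43 to 3.58 and 1.50 to 2.95), and their part in the Ccl5 difference was not tested.

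Between PαS-iPS and OP-iPS clones no chemokine passed the test, where 1.6% of all probes did. limma gave 5 chemokine probes an unadjusted p under 0.05, as it did 21.5% of all probes, and Ccl5 was nearest with a difference of -1.62 (SE 0.50, limma adjusted p = 0.0598). In fits with EB-3 or RF8 as the only ES array it passed (limma adjusted p = 0.0438 and 0.0468). The macrophage marker Cd14 was also lower in PαS-iPS (-1.17, limma adjusted p = 0.0187), the only one of 7 such markers tested that was called, and its part in the Ccl5 level was not tested. Cd14 was at -1.09 (limma adjusted p = 0.126) without the 3 clones that lacked Sox2 and Nanog, and at -1.07 (limma adjusted p = 0.0523) without the clones of slide 1. Within the 3 slides that held both sources the Ccl5 difference was -0.43, 0.60 and -2.59, so it did not keep its direction. Between OP-iPS and TTF-iPS clones no chemokine passed either, where 0.0217% of all probes did. There 4 chemokine probes and 10.2% of all probes had an unadjusted p under 0.05 in limma.

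**Figure D2:**
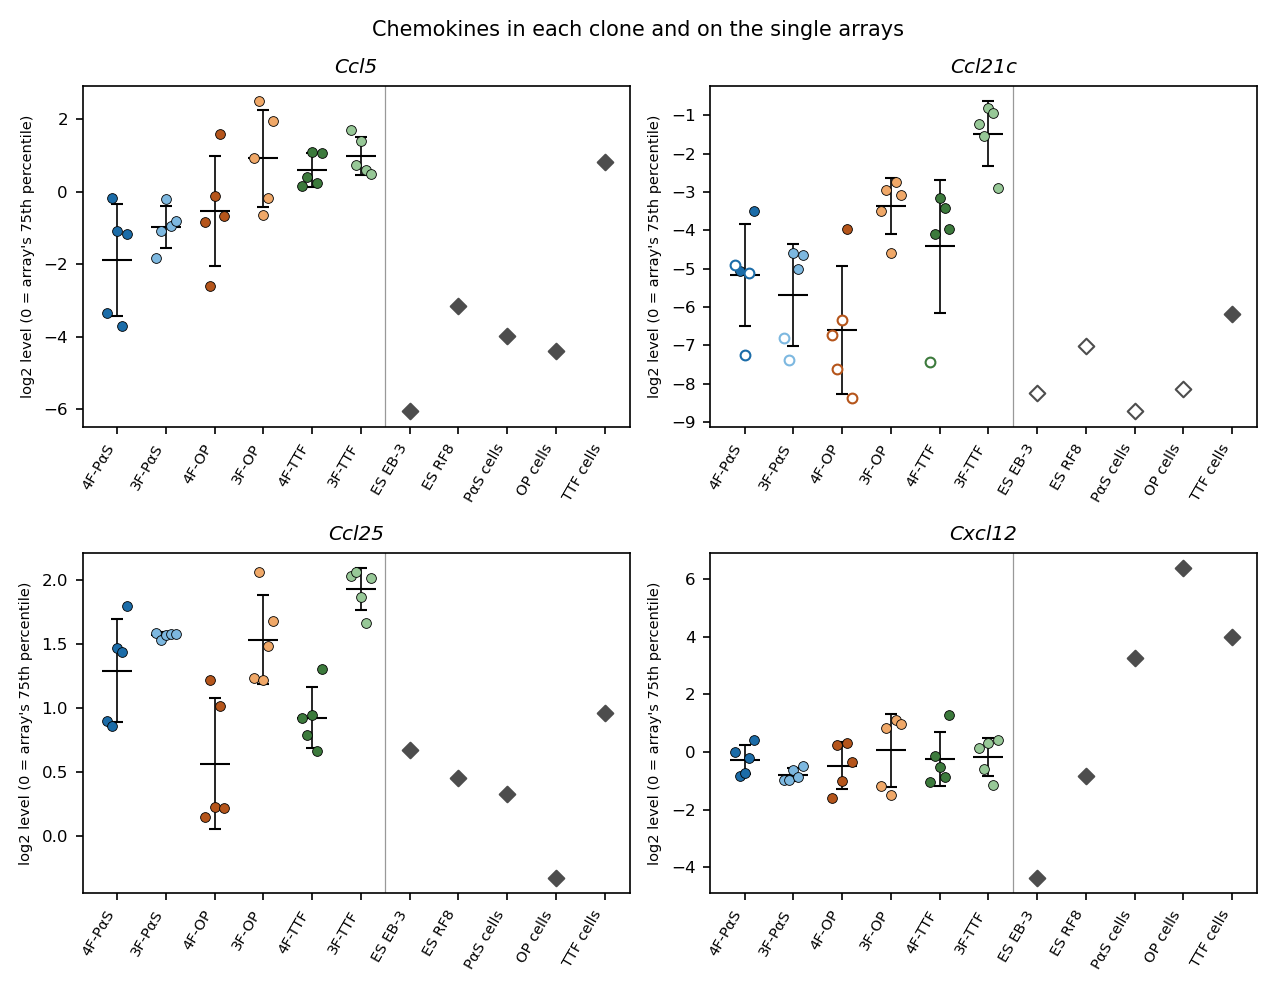
Log2 levels of Ccl5, Ccl21c, Ccl25 and Cxcl12 in each clone (points) of the 6 groups, with the mean and SD of 5 clones, and on the single ES and primary arrays (diamonds). Open symbols were not well above background. The 10 PαS-iPS clones lie below the 10 TTF-iPS clones for Ccl5, and the groups overlap for Cxcl12.

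Cxcl12, in contrast, did not separate the clones. Its group means were -0.27 ± 0.51 in 4F-PαS-iPS, -0.79 ± 0.23 in 3F-PαS-iPS, -0.47 ± 0.82 in 4F-OP-iPS, 0.05 ± 1.27 in 3F-OP-iPS, -0.25 ± 0.93 in 4F-TTF-iPS and -0.17 ± 0.67 in 3F-TTF-iPS (SD, n = 5 each). By clone, the 4F-PαS-iPS levels were -0.02, -0.82, -0.72, -0.21 and 0.42, and the 3F-PαS-iPS levels -0.98, -0.98, -0.61, -0.88 and -0.48. The OP-iPS clones were the most uneven.

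In 3F-OP-iPS, clones #2, #4 and #5 had Cxcl12 at 0.83, 1.11 and 0.98, while #1 and #3 had -1.19 and -1.48. In 4F-OP-iPS the levels were -1.60, 0.24, -0.99, 0.32 and -0.35. The TTF-iPS levels were -1.02, -0.14, -0.53, -0.85 and 1.30 with 4F and 0.14, -0.60, 0.30, -1.14 and 0.43 with 3F. The differences between sources were -0.32 for PαS against OP (SE 0.40, limma adjusted p = 0.698), -0.32 for PαS against TTF (limma adjusted p = 0.751) and 0.00 for OP against TTF (limma adjusted p = 0.999), each smaller than the spread within most groups.

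Ccl21c was called in comparisons of source and of factor set, and none of these calls held with slide as a random block. Only in 3F-OP-iPS and 3F-TTF-iPS, where it was highest, did all 5 clones have it above background. It entered the test only through these groups, so its p-values by source and factor set are no support for a change. Ccl21c was above background in 5 of 10 PαS-iPS clones and in 9 of 10 TTF-iPS clones. It was 2.48 lower in PαS-iPS on the log2 scale (-2.48, SE 0.56, limma adjusted p = 0.0314), with overlapping ranges. This difference was -0.70 with limma adjusted p = 0.21 after normexp background correction, which compresses dim signals, and -2.59 with limma adjusted p = 0.188 with slide as a random block. It also lost its call without any of 6 single clones (limma adjusted p up to 0.0611). On the slide with both sources, 3 PαS-iPS clones, all 3F, averaged -6.26 and the TTF-iPS clone, a 4F clone, was at -3.97.

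The comparison of 3F with 4F clones asked what leaving out c-Myc changed. In OP-iPS clones, Ccl21c was above background in all 5 3F clones, at -3.51, -2.95, -4.58, -2.74 and -3.08, but in 1 of 5 4F clones, #4, at -3.97. The other 4F-OP-iPS clones read -6.74, -7.61, -6.33 and -8.36 and were not well above background. 4 of the 5 3F clones lay above the highest 4F clone. Since Ccl21c entered the test through 3F clones, the fit adds no support beyond these levels. The log2 difference was 3.23 (SE 0.80, limma adjusted p = 0.0149). With dim spots set at the lowest measured signal it was 2.23 (limma adjusted p = 0.0102), and after normexp correction 0.78 (limma adjusted p = 0.223).

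In TTF-iPS clones the 3F and 4F ranges of Ccl21c did not overlap. The 3F clones were at -1.22, -1.54, -0.82, -0.93 and -2.91, and the 4F clones at -7.44, -4.09, -3.15, -3.43 and -3.97, of which only the first was not above background. The log2 difference was 2.93 (SE 0.80, limma adjusted p = 0.0199). The 4 highest Ccl21c levels of all clones were those of 3F-TTF-iPS #1 to #4.

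In PαS-iPS clones Ccl21c did not pass the test, at -4.90, -5.06, -7.24, -5.12 and -3.50 with 4F and -6.81, -7.39, -4.58, -5.02 and -4.63 with 3F. The difference was -0.52 (SE 0.80, limma adjusted p = 0.775). Set directly against each other, the 3F minus 4F differences of Ccl21c differed by -3.75 between PαS and OP (SE 1.12, limma adjusted p = 0.0882) and by -3.46 between PαS and TTF (SE 1.12, limma adjusted p = 0.107). Neither passed over all probes, although the latter passed after normexp correction (-2.10, limma adjusted p = 0.0341) and with dim spots at the lowest measured signal (-2.89, limma adjusted p = 0.0481).

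Ccl25, the thymic and gut ligand of Ccr9, moved by less but more evenly. In TTF-iPS clones it was 0.92, 0.79, 0.94, 0.66 and 1.30 with 4F (0.92 ± 0.24) and 2.03, 2.06, 1.86, 1.66 and 2.01 with 3F (1.93 ± 0.17), without overlap. The difference was 1.00 (SE 0.21, limma adjusted p = 0.00354), just at the 2-fold minimum. A second probe gave 0.96 (limma adjusted p = 0.00918). The upstream probe was above background in 1 of 5 4F and none of the 3F clones of TTF, so it does not measure the shift.

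In OP-iPS clones Ccl25 was 0.14, 1.22, 0.22, 1.02 and 0.21 with 4F (0.56 ± 0.51) and 1.23, 2.06, 1.21, 1.48 and 1.67 with 3F (1.53 ± 0.35). The difference of 0.97 (SE 0.21, limma adjusted p = 0.00598) fell just under the 2-fold minimum. In PαS-iPS clones it was 0.90, 0.86, 1.46, 1.43 and 1.79 with 4F and 1.58, 1.53, 1.57, 1.58 and 1.58 with 3F. That difference of 0.28 did not pass (SE 0.21, limma adjusted p = 0.501).

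In all, 1 of 27 chemokine probes changed between 3F-OP-iPS and 4F-OP-iPS clones, where 4.51% of all probes did and 3.94% were higher with 3F, and 2 changed between 3F-TTF-iPS and 4F-TTF-iPS clones, where 5.77% did and 3.97% were higher. All 3 were higher with 3F. These counts are near the background of each comparison, and the Ccl21c calls among them came from a probe that entered the test through its 3F groups. None changed in PαS-iPS clones, where 0.0181% of all probes did and limma gave 1 chemokine probe, Cx3cl1, and 17.3% of all probes an unadjusted p under 0.05. In the TTF-iPS comparison 15 of 27 probes were higher in 3F clones, with a median log2 difference of 0.08 against 0.04 over all probes. In the PαS-iPS comparison 23 of 27 were higher, with a median of 0.46 against 0.00 over all probes. 4F-PαS-iPS #1 and #4, which shared slide 1, had 13 chemokines and 56.6% and 56.7% of all probes above background, and without them 18 of 27 were higher, with a median of 0.15. The fibroblast and feeder markers had a median difference of 0.42 in PαS-iPS, with summed levels of 6.48 to 6.71 in 3F against 5.73 to 6.64 in 4F clones, and the macrophage markers summed to 2.31 to 3.58 against 1.43 to 2.87. None of either list was called there. In the OP-iPS comparison 24 of 27 probes were higher in 3F clones, with a median log2 difference of 0.89 against 0.02 over all probes, and 11 had an unadjusted p under 0.05, all higher, where 24.6% of all probes did in either direction. Without the clones that lacked Sox2 and Nanog 25 of 27 were higher, with a median of 0.72. The 12 fibroblast and feeder markers moved with them in OP-iPS, with a median difference of 1.53 and summed levels of 5.60 to 8.24 in 3F-OP-iPS against 5.26 to 6.91 in 4F-OP-iPS. Of these Col5a1 was called (1.63, limma adjusted p = 0.0492), 1 of 12 where 4.51% of all probes were, and without the clones that lacked Sox2 and Nanog it was 1.16 (limma adjusted p = 0.315). Its call was also lost with slide as a random block (1.64, limma adjusted p = 0.221) and without the clones of slide 1 (1.63, limma adjusted p = 0.0527). The part of these markers in the chemokine levels was not tested. The 3 tests of whether the 3F effect differed between sources gave 0 chemokine probes, where 0.648%, 0.583% and 0% of all probes changed, with 3, 2 and 3 chemokine probes at an unadjusted p under 0.05 in limma, where 18.9%, 19.3% and 3.72% of all probes were.

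The 3F and 4F clones of each source were never on the same slide, so slide and factor set can be separated only through the other sources. With slide as a random block, neither Ccl21c difference passed (3.02 with limma adjusted p = 0.151 for OP-iPS and 2.74 with limma adjusted p = 0.404 for TTF-iPS) and nor did Ccl25 (0.97, limma adjusted p = 0.197). Without the 3 clones that lacked Sox2 and Nanog, Ccl21c was 3.27 in OP-iPS (limma adjusted p = 0.0588) and 2.18 in TTF-iPS (limma adjusted p = 0.0909), and Ccl25 stayed at 1.00 (limma adjusted p = 0.00839). The summed pluripotency markers moved with these groups, from 3.41 to 9.04 in 4F-OP-iPS against 7.69 to 8.90 in 3F-OP-iPS and from 3.47 to 8.68 in 4F-TTF-iPS against 8.30 to 8.60 in 3F-TTF-iPS, and their part in the result was not tested beyond leaving out these clones.

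The other widely varying members showed no difference by source or factor set that passed the test in the reported fit. The SE of that fit also holds the gap between the ES arrays. The SD of the ES arrays was 6.15 for Ccl2, 4.78 for Ccl7 and 4.39 for Cxcl1, against 0.86, 1.11 and 1.19 over the 30 clones. The lack of calls for these genes is therefore not a property of the clones alone. Ccl2 and Ccl7, neighbouring monocyte attractants that share the receptor Ccr2, and Cxcl1, a neutrophil attractant, are given with Cxcl14 by group. Ccl2 means ran from 2.35 ± 0.98 in 4F-PαS-iPS, with clones at 1.64, 3.87, 2.15, 1.40 and 2.69, to 3.59 ± 1.03 in 4F-TTF-iPS, with clones at 3.64, 3.14, 2.43, 3.49 and 5.23. The means of the other groups lay between them, with clones at 2.43, 2.32, 3.66, 2.98 and 3.35 in 3F-PαS-iPS, 3.22, 1.69, 3.43, 4.50 and 2.18 in 4F-OP-iPS, 4.19, 3.27, 2.70, 2.41 and 2.81 in 3F-OP-iPS and 2.55, 2.49, 3.31, 2.30 and 3.46 in 3F-TTF-iPS. The groups overlapped throughout.

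Ccl7 was lowest in 4F-PαS-iPS, with a mean of -1.46 ± 0.98 (-2.15, -0.29, -1.26, -2.73 and -0.89), and highest in 3F-OP-iPS, with 0.57 ± 0.83 (-0.41, 1.84, 0.15, 0.67 and 0.60). The 4F-OP-iPS clones had -1.53, -2.46, -1.64, 0.43 and -1.55, and the 3F minus 4F difference of 1.92 in OP-iPS had a limma adjusted p of 0.136, which was 0.034 with EB-3 and 0.0358 with RF8 as the only ES array. The 2 groups overlapped. The 3F-PαS-iPS levels were -0.11, -1.36, 0.14, -0.59 and -0.31, the 4F-TTF-iPS levels -0.68, -0.77, -1.33, -0.36 and 1.81, and the 3F-TTF-iPS levels 0.53, -1.57, -0.12, -1.41 and -0.97.

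Cxcl1 had group means between -2.42 ± 1.35 and -1.19 ± 0.63, a span smaller than the SD of 3 of the 6 groups. Its levels in 4F clones were -3.06, -0.24, -2.82, -3.81 and -2.18 for PαS, -0.14, -4.84, -1.17, -1.39 and -2.05 for OP and -0.78, -1.45, -2.16, -0.99 and -0.59 for TTF. In 3F clones they were -3.18, -3.05, -1.31, -1.82 and -1.56 for PαS, -0.33, -2.99, -2.07, -3.59 and -2.95 for OP and -3.30, -2.84, -1.91, -2.62 and -0.38 for TTF. The 4F-TTF-iPS clones were the highest group, and all groups overlapped.

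The range of Cxcl14 was set by OP-iPS clones. In 4F-OP-iPS it was 2.35, -4.60, 1.46, -0.55 and 0.08, and in 3F-OP-iPS 1.57, -0.07, 2.37, 0.57 and -0.10. In PαS-iPS all 10 clones lay between -0.62 and 0.75, with 0.42, -0.62, -0.09, -0.02 and 0.18 for 4F and 0.32, -0.06, 0.51, 0.54 and 0.75 for 3F. The PαS-iPS clones were thus even where the OP-iPS clones were not. The TTF-iPS clones were at -0.78, -1.20, -0.93, -0.49 and -2.22 with 4F and at -0.72, 0.13, 0.45, 1.33 and 0.24 with 3F.

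The comparison of the clones with ES cells gave the most changes. 19 of 27 chemokine probes, for 15 genes, passed the test, all higher in the clones, which is 70.4% where 36.2% of all probes passed and 17.2% were higher in the clones. The median log2 difference of the chemokine probes was 2.45, against -0.11 over all probes. A dim probe could enter the test only through a group where it was high, so this share describes the probes tested and not the 34 genes. The comparison also cannot be told apart from scan session and slide, as said above. With slide as a random block 15 chemokine probes passed.

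The 2 ES arrays did not stand alike, and line, scan session, slide and scanner software version cannot be told apart between them. Of all gene probes 64.3% were above background on EB-3 and 71.1% on RF8. EB-3 had lower chemokine signal than RF8 for 17 of the 19 genes above background on either array, where 54.8% of all probes were lower on EB-3, and at least 4-fold lower for 12, where 8.23% of all probes were. Ccl2 was -5.83 on EB-3 and 2.86 on RF8, a 415-fold difference. Ccl19, a Ccr7 ligand, was 27.6-fold, Cxcl10 16.2-fold, Cxcl12 11.5-fold, Ccl5 7.49-fold and Cx3cl1 6.94-fold higher on RF8. Ccl9, Ccl7 and Cxcl1 were not well above background on EB-3 and were at least 28.7-fold, 24.0-fold and 15.9-fold higher on RF8. By the main probes, no gene was 4-fold or more higher on EB-3.

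Set against the range of the 30 clones, the array of EB-3 lay below every clone for 9 of the 12 chemokines measured on all clones, where 24.5% of all such probes did, and at least 4-fold below for 7, where 4.8% did. The gap to the lowest clone was 150-fold for Ccl2, at least 28.2-fold for Ccl9, at least 14.6-fold for Ccl7, 6.82-fold for Cxcl12, 6.68-fold for Cxcl16, 5.12-fold for Ccl5 and 4.29-fold for Cx3cl1. RF8 lay below every clone for Cxcl16 alone, by 1.43-fold, where 22.5% of all such probes lay below, and at least 4-fold below for none, where 0.986% did. RF8 thus fell within the clone range for 11 of the 12 genes, and for Ccl19 it was 2.78-fold above the highest clone on the main probe. On the second Ccl19 probe RF8 read -5.13, within the clone range of -6.81 to -2.74.

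**Figure D3:**
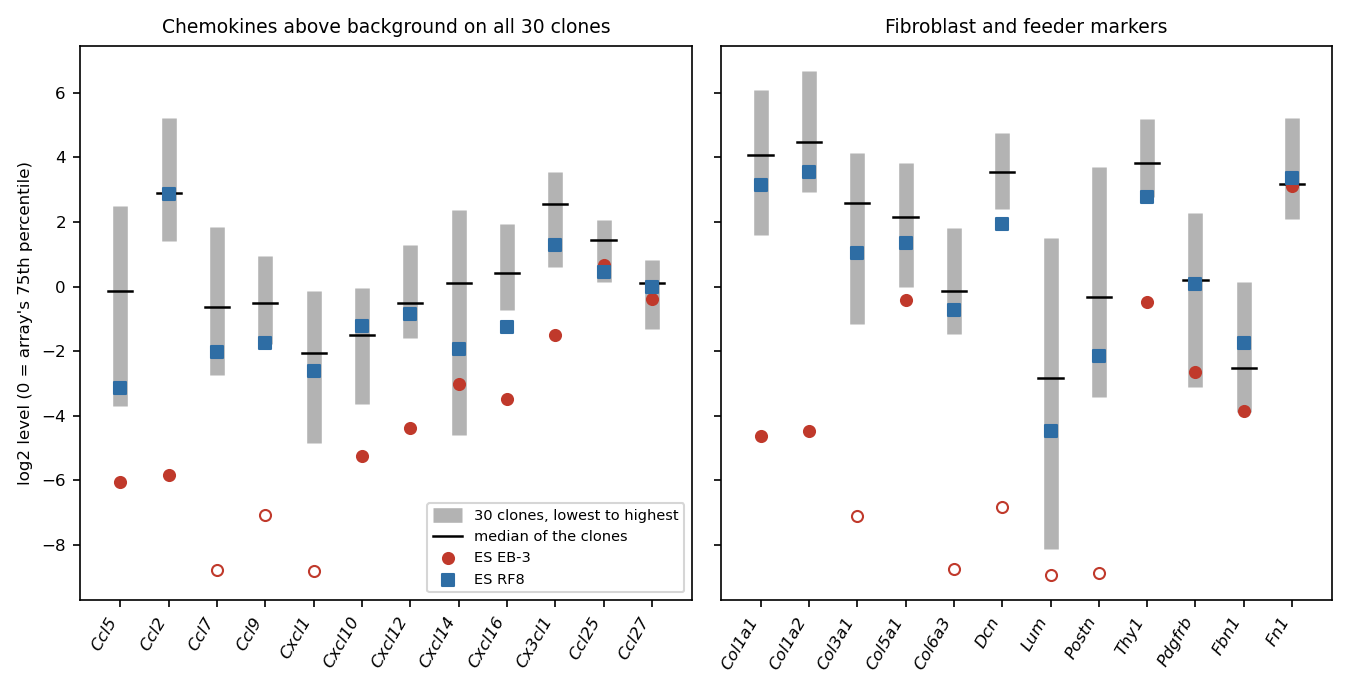
Log2 levels of the 12 chemokines above background on all clones (left) and of 12 fibroblast and feeder markers (right). Bars span the lowest to the highest of the 30 clones, and points are the ES arrays EB-3 and RF8, open where not well above background. EB-3 lies below the bars for 9 chemokines and RF8 for 1, and EB-3 is also the lower array for the fibroblast markers.

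The test against both ES arrays was carried by EB-3 for most genes. In fits with 1 ES line the ES arm is a single array, which is assumed to vary like the clone groups. Against RF8 alone 3 chemokine probes passed: both Ccl5 probes were higher in the clones (3.0 with limma adjusted p = 0.0292 and 3.75 with limma adjusted p = 0.0128), and Ccl19 was lower on its main probe (-2.65, limma adjusted p = 0.00176) but not on the second (1.1, limma adjusted p = 0.443). Ccl5 was 4.46 higher in the clones than on both ES arrays (SE 0.81, limma adjusted p = 5.49e-05), and 28 of 30 clones exceeded the higher ES array.

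Cxcl16, a membrane-bound ligand of Cxcr6 that also binds oxidised lipoprotein, was the called gene with no overlap between the clones and either ES array on its main probe. Its clones ran from -0.74 to 1.94 with a median of 0.42, and the ES arrays read -3.48 and -1.26. The difference was 2.82 (SE 0.54, limma adjusted p = 0.000102) and, against RF8 alone, 1.71 (limma adjusted p = 0.0556). A second probe of Cxcl16 gave 1.33 (limma adjusted p = 0.0412) with overlap. Cx3cl1, the other membrane-bound ligand, ran from 0.60 to 3.54 in the clones with a median of 2.55, and was -1.50 on EB-3 and 1.30 on RF8 (difference 2.45, SE 0.48, limma adjusted p = 0.000142). Against RF8 alone it differed by 1.05 (limma adjusted p = 0.144). Its second probe went the other way: it was above background in 2 clones, read -4.71 on EB-3, above the highest clone (-5.14), and was not above background on RF8. That probe was not among those tested, and without the filter on dim probes its difference was -1.35 (limma adjusted p = 0.0416).

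The monocyte attractants Ccl2, Ccl7 and Ccl9 were 4.45, 4.78 and 3.84 higher in the clones than on the ES arrays (limma adjusted p = 0.00082, 0.000125 and 5.07e-05). Ccl7 and Ccl9 were not above background on EB-3, and with dim spots at the lowest measured signal they differed by 3.69 and 3.61. The Ccl2 clones ran from 1.40 to 5.23 with a median of 2.89, which includes the RF8 level of 2.86. Against RF8 alone Ccl2 differed by 0.10 (limma adjusted p = 0.937), Ccl7 by 1.40 (limma adjusted p = 0.243) and Ccl9 by 1.19 (limma adjusted p = 0.151).

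Among the CXC ligands, Cxcl7 differed by 4.54 (SE 1.01, limma adjusted p = 0.000518), Cxcl1 by 3.66 (limma adjusted p = 0.00459), Cxcl14 by 2.51 (limma adjusted p = 0.0179), Cxcl12 by 2.29 (SE 0.66, limma adjusted p = 0.00493) and Cxcl10 by 1.74 (limma adjusted p = 0.0252). Cxcl7 and Cxcl1 were not above background on EB-3, and with dim spots at the lowest measured signal they differed by 3.52 and 2.55 (limma adjusted p = 0.00227 and 0.0226). Cxcl10, an interferon-induced attractant of T cells, turned to -0.26 against RF8 alone (limma adjusted p = 0.802). Cxcl12 dropped there to 0.52 (limma adjusted p = 0.632) and Cxcl1 to 0.55 (limma adjusted p = 0.747). Cxcl7 dropped to 2.71 (limma adjusted p = 0.114) and Cxcl14 to 1.97 (limma adjusted p = 0.215), so no CXC ligand named here kept its call against RF8 alone. With slide as a random block Cxcl14 (2.52, limma adjusted p = 0.0545) and Cxcl10 (1.73, limma adjusted p = 0.051) were no longer called, nor was the second Cxcl16 probe. After normexp correction Cxcl1 (1.24, limma adjusted p = 0.106) and Cxcl10 (0.83, limma adjusted p = 0.149) were not called.

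Of the weakly expressed CC ligands, Ccl17 differed by 1.60 (limma adjusted p = 0.00546). Ccl8 and Ccl21c were not well above background on either ES array, so they entered the test only through clone groups that had them throughout. The clones were at least 2.90-fold and at least 4.36-fold higher than the ES arrays (limma adjusted p = 0.00201 and 0.00519, with 19 and 20 of 30 clones above background). These bounds hold for the reported scale, since after normexp correction Ccl8 differed by 0.24 (limma adjusted p = 0.713), Ccl21c by 0.52 (limma adjusted p = 0.326) and Ccl17 by 0.29 (limma adjusted p = 0.588). Against RF8 alone none of these 3 was called, at 1.83, 2.56 and 0.66 (limma adjusted p = 0.145, 0.121 and 0.41). The probes of Ccl19 disagreed: one differed by 2.13 (limma adjusted p = 0.025) and the brighter probe by -0.26 (limma adjusted p = 0.755). With slide as a random block the first was 2.07 (limma adjusted p = 0.0544), and after normexp correction 0.40 (limma adjusted p = 0.435).

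The fibroblast and feeder markers moved with the chemokines on these arrays. Of the 12, 7 were above background on EB-3 and 12 on RF8, and 11 or 12 on each clone. Their summed level was 3.40 on EB-3, 5.59 on RF8 and 5.26 to 8.24 on the clones, and 7 of the 12 changed, all higher in the clones, where 17.2% of all probes were higher, among them Col1a2 by 5.02 (limma adjusted p = 8.97e-05). Col3a1, Col6a3, Dcn, Lum and Postn, which encode matrix proteins, were not above background on EB-3. The 12 macrophage markers summed to levels of -0.18 to 0.36 for ES and of 1.22 to 3.58 for the clones. Csf1r passed as higher in the clones (limma adjusted p = 3.17e-06) and was above background on neither ES array. Their part in the chemokine difference was not tested.

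Among the primary cells, the TTF array held the highest chemokine signal. 10 chemokines were at least 8-fold above the highest of the 30 clones on it, where 1.36% of all probes were. Among the inflammatory CC ligands that macrophages make in quantity, Ccl4 was 4.93 (at least 861-fold above), Ccl3 3.57 (231-fold) and Ccl6 5.28 (608-fold). Cxcl4, known from platelets, was 4.55 and 642-fold above.

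The monocyte and eosinophil attractants of the chr11 cluster were high there too. Ccl12 read 4.24, at least 536-fold above the clones, none of which had it above background, and Ccl8 read 5.73 (252-fold). Ccl11 was -1.06 (11.5-fold) and Ccl7 4.93 (8.52-fold). Ccl9 was 6.22 (38.4-fold), and Cxcl5, a neutrophil attractant, was 1.32 and 8.02-fold above, just inside the 8-fold limit. Just outside it, Cxcl12 was 6.45-fold and Cxcl16 5.48-fold above the highest clone. Ccl5 at 0.82 lay within the range of the clones.

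The primary OP array had 3 such chemokines, where 0.743% of all probes were. Cxcl12 was 6.38, 33.8-fold above the highest clone, and its second probe read 4.26. Ccl6 was 0.86 (28.5-fold) and Cxcl5 1.95 (12.4-fold). On the primary PαS array none reached 8-fold, where 0.335% of all probes did, and Cxcl12 was the nearest, at 3.27 and 3.92-fold above. Cxcl12 was thus above all 30 clones on each of the 3 primary arrays, in the order OP, TTF and PαS. With 1 array each, these orders have no replicate check.

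Ccl5 went the other way on the bone marrow arrays. On its main probe it was -3.98 on primary PαS and -4.39 on primary OP, below all 30 clones by 1.21-fold and 1.61-fold, and 27.9-fold and 37.1-fold lower than on primary TTF. On the second probe they read -6.07 and -6.26, and 4F-PαS-iPS #1 was not above background at -6.63. Cxcl16 on primary PαS (-1.17) and Ccl2 (0.81) and Ccl25 (-0.33) on primary OP were also below all clones. Ccl2 was 10.2-fold higher on primary PαS than on primary OP.

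**Figure D4:**
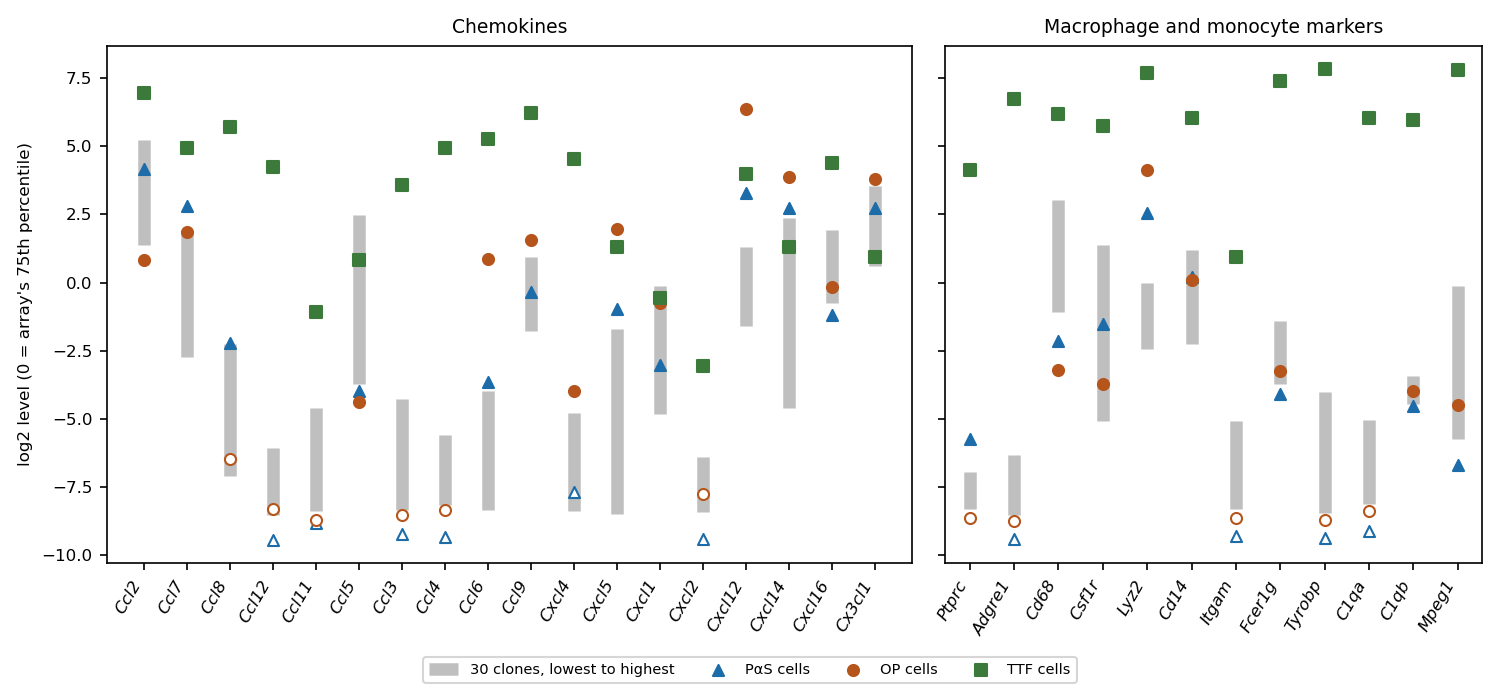
Log2 levels of 18 chemokines (left) and 12 macrophage and monocyte markers (right). Bars span the lowest to the highest of the 30 clones, and symbols are the single arrays of primary PαS, OP and TTF cells, open where not well above background. TTF lies highest for most CC ligands and for all 12 markers, and OP lies highest for Cxcl12.

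The primary TTF array also carried macrophage markers, although TTF is labelled as fibroblasts. All 12 markers were above background on it, and their summed level was 10.3, against 2.96 on primary PαS, 4.25 on primary OP and 1.22 to 3.58 on the clones. Ptprc, which encodes CD45, was 4.14, Adgre1, which encodes F4/80, 6.74, C1qa 6.04 and Tyrobp 7.84. On primary OP these 4 and Itgam were not above background, and on primary PαS Adgre1, C1qa, Tyrobp and Itgam were not, while Ptprc was -5.74. The fibroblast markers were 12 of 12 above background on all 3 arrays, with summed levels of 8.20 on TTF, 9.37 on PαS and 10.2 on OP. Clones made from TTF did not carry the macrophage signal (1.50 to 2.95 with 3F and 1.64 to 2.19 with 4F). The part of macrophages in the chemokine levels of primary TTF was not tested.

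The receptors gave context for the ligands. Of 19 chemokine receptors on the array 5 could be tested. Cxcr2, the receptor of Cxcl1 and Cxcl5 in neutrophils, was above background in 13 of 30 clones and entered the test only because it was measured throughout 1 group, so no difference by source is given for it. Ccr7, which binds Ccl19 and Ccl21, was 1.61 higher in 3F-TTF-iPS than in 4F-TTF-iPS clones (SE 0.37, limma adjusted p = 0.00841), 1 of 5 receptors where 3.97% of all probes were higher, and with slide as a random block it was 1.42 (limma adjusted p = 0.263). No receptor was called between 3F-OP-iPS and 4F-OP-iPS clones, where 4.51% of all probes were. Ccr9, which binds Ccl25, was above background in 2 clones. Against the ES arrays Ccr7 was 1.82 higher in the clones (limma adjusted p = 0.000968), and it was not above background on EB-3.

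Of the receptors of Ccl5, Ccr1 was above background in no clone, and Ccr3 in 10. Cxcr4, the receptor of Cxcl12, was above background in 26 clones, from -7.31 to -1.12, and Ackr3, which binds and clears Cxcl12, in all 30, from -0.27 to 3.58. On the primary TTF array Cxcr4 was 1.04, Cxcr3 0.63 and Ccr2 -2.24, while none of these was above background on primary PαS or OP. Of 5 atypical receptors 3 were tested and 3 were higher in the clones than on the ES arrays, where 17.2% of all probes were, Ackr2 by 1.59, Ackr3 by 1.54 and Ccrl2 by 3.30 (limma adjusted p = 0.00416, 0.0357 and 0.000207). With slide as a random block Ackr3 was no longer called (1.55, limma adjusted p = 0.0862). All 5 atypical receptors were above background on RF8 and only Ackr3 was on EB-3, with summed levels of 0.08 and -1.44, against -0.16 to 3.60 on the clones. Xcl1, the ligand that the name rule leaves out, was above background on no array.

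Regulators of the inflammatory members were listed as well. Of 29 NF-κB and innate genes on the array 23 were tested, and 12 were higher and 1 was lower in the clones than on the ES arrays, where 17.2% of all probes were higher. Irf7, the interferon-induced factor, passed as higher (limma adjusted p = 2.21e-07) and was above background on neither ES array. Tnfrsf1a, a TNF receptor, was higher by 3.14 (limma adjusted p = 2.41e-06), Tlr4, the endotoxin receptor, by 3.08 (limma adjusted p = 0.000757) and Il6 by 2.50 (limma adjusted p = 0.00769), the last 2 not above background on EB-3. Nfkb1 fell by 1.06 (limma adjusted p = 0.000632). None of the 23 changed between clone groups in any comparison of source or factor set, where 0.0181% to 5.77% of all probes did. On the primary TTF array Tnf was 1.77, and it was not above background on the other 2 primary arrays.

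The promoters of 24 of the 34 genes were at hand, not those of Ccl2, Ccl5 and Ccl7. They come from RefSeq on GRCm38.p6 and were searched over 250 bases before the start. An interferon-stimulated response element (GAAANNGAAA, both strands) stood in 3 of the 24 (12.5%, against 3.46% of 27025 genes), the NF-κB consensus on both strands in 5 (20.8% against 4.46%) and TATAAA on the gene's strand in 9 (37.5% against 8.94%). The overlapping matches of 1 palindrome on both strands count as 1 gene. A match is only a match of letters.

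The promoters of Cxcl10 and Cxcl1 are printed because both genes were measured on all clones and were low on EB-3, and that of Cxcl12 because it led the primary bone marrow arrays and held none of the 3 motifs. Capitals mark the motifs. In Cxcl10 the response element begins 213 bases and the NF-κB matches 159 and 103 bases before the start, and in Cxcl1 the NF-κB matches of both strands overlap, 71 and 70 bases before it.
Cxcl10, chr5:92348890-92349139, minus strand: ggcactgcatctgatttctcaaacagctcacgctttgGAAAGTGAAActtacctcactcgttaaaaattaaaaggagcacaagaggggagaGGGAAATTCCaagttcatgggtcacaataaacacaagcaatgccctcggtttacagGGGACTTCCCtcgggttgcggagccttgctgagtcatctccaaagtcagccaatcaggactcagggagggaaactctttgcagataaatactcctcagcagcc
Cxcl1, chr5:90890995-90891244, plus strand: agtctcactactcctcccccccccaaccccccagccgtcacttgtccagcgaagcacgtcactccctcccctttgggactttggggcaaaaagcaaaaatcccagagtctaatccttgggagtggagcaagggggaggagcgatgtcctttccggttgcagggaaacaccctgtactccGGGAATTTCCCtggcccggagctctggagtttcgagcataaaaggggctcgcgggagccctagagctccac
Cxcl12, chr6:117168285-117168534, plus strand: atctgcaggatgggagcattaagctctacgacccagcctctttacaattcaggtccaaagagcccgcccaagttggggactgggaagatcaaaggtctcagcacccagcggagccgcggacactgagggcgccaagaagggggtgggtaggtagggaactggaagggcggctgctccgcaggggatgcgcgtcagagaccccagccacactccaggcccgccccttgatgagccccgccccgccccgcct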

How the data were processed

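Total RNA was labelled with Cy3 and hybridised to 1-colour Agilent mouse oligo arrays. The deposited scanner files hold 1 intensity per spot, from which the authors' scanner software (Feature Extraction) had subtracted background, with no normalization between arrays. The authors also deposited log2 values from GeneSpring GX, 41266 probes each with a median of 0 over the 35 arrays, and these served as an alternative.

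Control spots and outlier-flagged spots (54 to 152 per array) were left out and replicate spots averaged. Values were log2 intensities minus the array's 75th percentile. The 30 clones and 2 ES arrays entered 1 limma fit (version 3.58.1, R 4.3.3) with 7 groups, and tests covered the 27623 probes that at least 1 group had above background throughout, with Benjamini-Hochberg adjustment over all of them. A probe was called at an adjusted p under 0.05 and at least 2-fold. The primary arrays, 1 each, were set against the range of the clones without a test, as were the ES arrays singly. The number of arrays limits the precision.

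Described by sample were Ccl5, Cxcl12, every member called in a comparison, and the 5 members with the widest range over clones among those measured on all 30. Also named were members at least 8-fold above the highest clone on a primary array or at least 4-fold outside the clones on an ES array. Members and lists were chosen with earlier results of these data known. Lists covered chemokine receptors, NF-κB and innate regulators, and markers of pluripotent, fibroblast, bone, macrophage, granulocyte, lymphocyte and endothelial cells. Some genes of these lists are not reported here. Where no array of a group was above background, "at least" folds set that group at the lowest measured signal of each array. Tested on simulated data, the procedure found 90% of probes shifted by 2 log2 units in the PαS-iPS against TTF-iPS comparison and 70.5% in that of clones against ES arrays, among 27623 probes. It found 73% to 77% for 3F against 4F and 55.5% to 61% for the tests of whether the 3F effect differed between sources. The simulated arrays were independent, whereas real arrays of 1 slide correlated at 0.33.

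Alternatives were normexp background correction, quantile normalization, the authors' table, the filters, the fold minimum, slide as a fixed or random block, the clone number as a block, other probes, and leaving out single arrays, single ES lines or the 3 clones without Sox2 and Nanog. Leaving out the slide of 4F-PαS-iPS #1 and #4, and dim signals at the lowest measured signal, were chosen after seeing the data, as were the refits of list genes and of the direction of all chemokine probes. Clone numbers in the labels do not pair clones, and deviations of clones with the same number correlated over 0.1 in 16 of 75 pairs.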

Additional observations from a re-analysis of the deposited data

Results flagged for a closer look

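Within the groups of 5 clones, 48 sets of levels over 8 chemokines were checked for a clone far from the other 4, and 2 were found, where chance alone marks about 1 group in 20. Ccl21c in 4F-TTF-iPS #1 was -7.44 and not well above background, while the nearest of its group was -4.09. This clone also lacked Sox2 and Nanog. Ccl25 in 3F-PαS-iPS #2 was 1.53, against 1.57 for the nearest of a group whose 5 levels were nearly equal. No explanation was weighed for either value.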

How the results depend on the processing

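The 20 differences named as called gave 874 values under the alternatives, of which 802 stayed called with the same direction, 68 kept the direction without the call and 4 turned. The 4 that turned were Ccl25 in 3F against 4F TTF-iPS by its upstream probe (-0.36, a difference of signals not above background in 9 of 10 clones and so no measured reversal), Ccl19 in clones against ES by its brighter probe (-0.26), and Cxcl10 against ES without EB-3, whether left out as an array or by fitting RF8 alone (-0.26 in both, against 3.75 without RF8). The second Cx3cl1 probe, which was outside the test, is not among the 874 values. The cause of these turns was not tested.

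The counts of called chemokine probes moved as follows. With normexp they were 1 for PαS against TTF, 0 for 3F against 4F OP, 1 for 3F against 4F TTF, 11 for clones against ES and 1 for the differences of 3F effects, and 1 chemokine stayed 8-fold above the clones on primary OP and 1 4-fold below on EB-3. With quantile normalization they were 2 for PαS against OP and 2 for 3F against 4F OP. With probes above background on all 32 arrays only, where fewer probes were tested, they were 1, 0, 1 and 8 for PαS against TTF, 3F against 4F OP, 3F against 4F TTF and clones against ES. Without a fold minimum 3 were called for 3F against 4F OP.

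With slide as a random block no chemokine was called for PαS against TTF, 3F against 4F OP or 3F against 4F TTF (0 each), and slide as a fixed block gave 0 for 3F against 4F TTF. Without the clones lacking Sox2 and Nanog, the counts were 0 for 3F against 4F OP and 1 for 3F against 4F TTF. In the alternatives chosen after seeing the data, leaving out the slide of 4F-PαS-iPS #1 and #4 gave 1 for PαS against TTF and 4 for 3F against 4F TTF, and dim signals at the lowest measured signal gave 1 for PαS against OP and 1 for the differences of 3F effects. RF8 alone gave 3 for clones against ES, and the other probes gave 4 chemokines 4-fold below the clones on EB-3.

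With the clone number as a replicate block the counts were 1 for PαS against OP (Cxcl11), 5 for 3F against 4F OP (Ccl21c, both Ccl7 probes, Cx3cl1 and Cxcl10) and 4 for 3F against 4F TTF (Ccl19, Ccl20, Ccl21c and Ccl25). The block changed no other count by over 1.5 times, and the numbers do not pair the clones. Leaving out 1 array at a time gave 0 to 3 for PαS against OP, 0 to 3 for PαS against TTF, 0 to 1 for OP against TTF, 0 to 0 for 3F against 4F PαS, 1 to 6 for 3F against 4F OP, 1 to 4 for 3F against 4F TTF, 3 to 22 for clones against ES and 0 to 1 for the differences of 3F effects. Without EB-3 the count for clones against ES was 3, without 4F-OP-iPS #2 those for PαS against OP and for 3F against 4F OP were 3 and 6, and without 3F-TTF-iPS #1 or #3 that for PαS against TTF was 0.

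Signals near background set the limits: the lowest measured signal lay between -7.17 and -4.82 depending on the array, so differences among lower levels have no order.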

Other observations

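Cxcl15, a lung-enriched CXC ligand, was outside the test because no group had it above background on all 5 clones, and it was picked after its values were seen. It was above background in 4 of 5 3F-TTF-iPS clones (-4.54, -4.09, -3.45 and -3.72), in 3 of 5 3F-PαS-iPS clones (-4.80, -4.26 and -5.94), in 2 of 5 4F-TTF-iPS clones (-5.30 and -4.07) and in 1 clone each of 3F-OP-iPS (-3.48) and 4F-PαS-iPS (-5.65). No 4F-OP-iPS clone had it above background. The primary OP array had it at -4.94.

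Ccl20, the ligand of Ccr6, was lower in 3F than in 4F TTF-iPS clones under quantile normalization (-1.55, limma adjusted p = 0.00974) and not called in the reported fit (-1.09, limma adjusted p = 0.0629). Cxcl9 was above background on the primary PαS (-6.06) and TTF (-4.95) arrays and on no clone.

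Among the marker lists, the PαS sort marker Ly6a, which encodes Sca-1, was lower in 3F than in 4F TTF-iPS clones (log2 difference -3.65, SE 1.07, limma adjusted p = 0.0299), but it was not called with slide as a random block (-3.37, limma adjusted p = 0.42) or without the clones that lacked Sox2 and Nanog (-3.55, limma adjusted p = 0.0665). Of 7 granulocyte markers on the array 3 were tested and none changed between clone groups, where 0.0181% to 5.77% of all probes did by comparison. Of 11 lymphocyte markers 5 were tested, and Cd79b was 2.98 higher in 3F than in 4F OP-iPS (limma adjusted p = 0.0289), where 4.51% of all probes changed. Cd79b was not called without the clones that lacked Sox2 and Nanog (0.98, limma adjusted p = 0.447) or with slide as a random block (3.20, limma adjusted p = 0.137). Of 5 endothelial markers 5 were tested, and none changed between clone groups.

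Of 7 pluripotency markers tested, Zfp42 and Dppa5a were higher in 3F than in 4F OP-iPS clones (2.41 and 3.76, limma adjusted p = 0.0382 and 0.0311), where 3.94% of all probes were, and Zfp42 was higher in PαS-iPS than in OP-iPS clones (1.81, limma adjusted p = 0.0442), where 1.6% of all probes changed. Without the clones that lacked Sox2 and Nanog none of these was called, with 1.19 and 1.45 (limma adjusted p = 0.415 and 0.253) for 3F against 4F and 1.2 (limma adjusted p = 0.28) for PαS-iPS against OP-iPS. With slide as a random block neither 3F against 4F difference was called (2.52 and 3.96, limma adjusted p = 0.165 and 0.143). That of PαS-iPS against OP-iPS stayed called there (1.98, limma adjusted p = 0.0451) but not without the clones of slide 1 (1.72, limma adjusted p = 0.0958). Against the ES arrays Zfp42 and Tdgf1 were lower in the clones (-5.34 and -3.35). In the same comparison Ly6a and Pdgfra, both PαS sort markers, were higher (5.03 and 4.65). Runx2 of the bone list (3.51) and Cdh5 of the endothelial list (3.30) were also higher, while Lck (-2.35) was lower. Sp7 (-1.03) was lower too, but only 3 clones had it above background. Sp7 thus entered the test only through the ES arrays, and its p-value is no support for a change. Without the clones of slide 1 Sp7 was at -0.95 (limma adjusted p = 0.0268), under the 2-fold minimum and so not called. Ly6a, Runx2 and Cdh5 were not above background on EB-3. Ltf and S100a9 of the granulocyte list and Nkg7 of the lymphocyte list were also higher and were above background on neither ES array. They entered the test only through clone groups that had them throughout. Ltf was above background in 27 clones, but S100a9 in 18 and Nkg7 in 17. The p-values of S100a9 and Nkg7 are therefore no support for a change. In the reported fit each difference from the ES arrays named here passed in limma at an adjusted p under 0.05 and at least 2-fold. Scan session cannot be told apart from clones against ES in any of them.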
